A study of Mus musculus with 12 samples.

Results

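Glycolysis and the response to low oxygen were followed through 38 genes in RNA-seq of a mouse breast tumour line. The members were the rows of the deposited count table whose gene symbol was on a fixed list: 16 enzymes of glycolysis, 3 glucose and lactate carriers, 3 regulators of glycolytic flux, 4 genes of the hypoxia-inducible factor (HIF) switch, 2 collagen prolyl hydroxylases and 10 other genes that low oxygen is known to induce. They took up 39 of the table's 55492 features, because Aldoa has a second annotated row. All 39 were among the 15052 features with enough counts to be tested. The list was chosen with earlier results of these data known. The second Aldoa row had a low level and was called in none of the comparisons, so Aldoa below is its main row.

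Glycolysis splits glucose into pyruvate in the cytosol, and lactate dehydrogenase turns pyruvate into lactate when mitochondria do not take it up. In oxygen, prolyl hydroxylases of the EGLN family mark the HIF alpha subunits for destruction. When oxygen is short the alpha subunits persist, pair with ARNT and raise the transcription of glucose carriers, glycolytic enzymes and stress genes, among them EGLN genes themselves. Tumour cells often run glycolysis at a high rate with oxygen present. HIF alpha is controlled largely as a protein, so its mRNA does not measure its activity.

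The cells were CCN6KOT, described as a primary line from a breast tumour of the spindle metaplastic kind. All 4 groups of 3 libraries carried this background, lentivirus and puromycin selection. The first group (DNTCF4) received the dominant negative construct of that name, and its titles also carry the word Vector in the place of a second construct. TCF4, encoded by Tcf7l2, is a transcription factor through which beta-catenin acts on Wnt target genes. Cells of the next groups (DNTCF4_EZH2 and DNTCF4_SET) received DNTCF4 with a second construct that the study design calls a rescue protein, labelled EZH2, the Polycomb histone methyltransferase, or SET, which the labels do not expand. The controls (Vector) received a control lentivirus and are titled PPGS-Vector, where PPGS is not expanded. Whether the 3 libraries per group stem from separate cultures or transductions is not stated, so the p-values rest on a spread between libraries that may be technical, and a single line was used.

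Each level is given in CPM (counts relative to the TMM-scaled library total), with n = 3 libraries per group and values in the order of replicates 1, 2 and 3. Changes are log2 fold changes from edgeR's quasi-likelihood test with their SE, and a gene is called at a Benjamini-Hochberg adjusted p under 0.05 over the 15052 tested. Library totals ran from 23597545 to 33999982 counts, and 3 counts, taken as the floor, came to between 0.0882 and 0.127 CPM. Tcf7l2 had 37.0 to 41.4 CPM in DNTCF4 libraries and 8.63 to 13.6 CPM in Vector libraries, and Ccn6 had at most 0.0293 CPM in any library. Ezh2 had 429 to 470 CPM in DNTCF4_EZH2, 509 to 574 CPM in DNTCF4_SET and 62.7 to 68.8 CPM in DNTCF4 libraries, so it was raised in both groups with a second construct and was highest in DNTCF4_SET. The gene Set had 529 to 546 CPM in DNTCF4_EZH2, 534 to 568 CPM in DNTCF4_SET, 589.6 to 667 CPM in DNTCF4 and 665 to 700.3 CPM in Vector libraries, and was thus not raised in DNTCF4_SET. DNTCF4_SET is used below as labelled. Of 10 epithelial markers 5 were below 1 CPM in every library, and the summed level of the list was 337 to 381 CPM in DNTCF4 against 349 to 357 CPM in Vector libraries. Krt18 made up most of it (235 to 262 CPM in DNTCF4 and 227 to 232 CPM in Vector libraries) and was higher in each DNTCF4 library. Krt19 was lower in each (9.91 to 14.6 CPM in DNTCF4 and 19.5 to 25.3 CPM in Vector libraries). The summed level of 8 mesenchymal markers, of which Twist1 was at 0 throughout, was 5227 to 5800 CPM in DNTCF4, 6720 to 6834 CPM in DNTCF4_EZH2, 6186 to 6636 CPM in DNTCF4_SET and 11358 to 12366 CPM in Vector libraries. Most of this sum was Fn1, fibronectin (3557 to 4020 CPM in DNTCF4 and 8377 to 9066 CPM in Vector libraries), and the list did not move as a whole. Col1a1, Sparc and Vim were also lower in each DNTCF4 library than in each Vector library, while Prrx1 (82.6 to 93.8 CPM in DNTCF4 and 19.2 to 20.4 CPM in Vector libraries), Zeb1 (80.6 to 94.9 CPM in DNTCF4 and 71.4 to 75.9 CPM in Vector libraries) and Zeb2 (117 to 126 CPM in DNTCF4 and 103 to 109.6 CPM in Vector libraries) were higher in each. The part of these differences in the results below was not tested, and in bulk RNA fewer cells of a type and less RNA per cell cannot be told apart. DNTCF4 replicate 1 stood apart from the others of its group (chi-square per degree of freedom 20.7 and 13.1, against 3.33 between replicates 2 and 3), and in DNTCF4_EZH2 replicates 1 and 2 differed most (16.3, against 6.33 and 6.09 for the other pairs).

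In DNTCF4 against Vector, 3 of 4 genes of the HIF switch and all 10 other hypoxia-induced genes were higher, while most of the glycolytic enzymes that changed were slightly lower. Of the 38 members, 19 rose, 12 fell and 7 were not called, in a comparison that called 57.5% of all tested genes (29.5% higher and 28.0% lower). The share of members that rose was thus above the background and the share that fell was near it. Changes of 1.5-fold or more numbered 9 rises (Slc2a1, Eno2, Pfkfb3, Hif1a, Egln1, Ndrg1, Ankrd37, Car9 and Mxi1) and 1 fall (Slc2a3), where 10.8% and 9.87% of all genes were called and moved that far up or down. The libraries of both groups did not overlap for 20 members that were higher and 10 that were lower in DNTCF4, where 30.2% and 29.0% of all genes were apart in these directions. The median log2 fold change was 0.11 over the members and 0.01 over all genes tested. Without DNTCF4 replicate 1 the rises still numbered 19, with Slc16a3 called in place of Bnip3l, and without Vector replicate 2 the falls numbered 7.

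**Figure D1:**
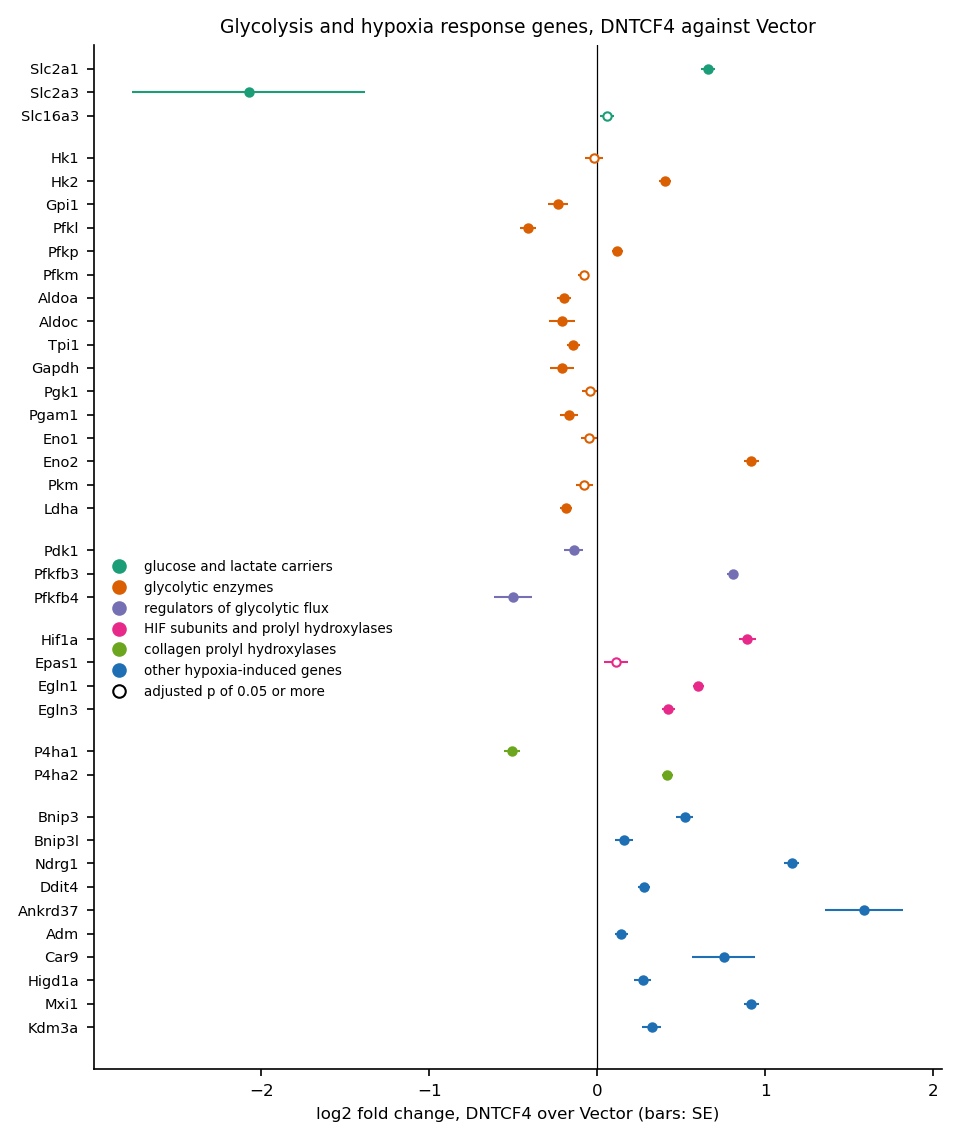
Log2 fold change of each member in DNTCF4 over Vector (x axis, bars are SE, n = 3 libraries per group), grouped down the page by role and coloured by it. Filled points are called and open points are not. The 10 other hypoxia-induced genes lie right of 0, from 0.14 for Adm to 1.59 for Ankrd37, most glycolytic enzymes lie just left of 0, and the wide bar of Slc2a3 belongs to a gene with 2 to 41 counts per library in these groups.

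In the HIF switch, 3 of 4 genes rose in DNTCF4, where 29.5% of all tested genes did. Hif1a (chr12:73901375-73947530, + strand of GRCm38), the widely expressed oxygen-regulated alpha subunit, had 502, 424 and 436 CPM in DNTCF4 libraries, against 247, 239.9 and 247 CPM in Vector libraries. Every DNTCF4 library lay well above every Vector library, and replicate 1 was the highest of its group. The change was 1.86-fold (log2 fold change 0.89, SE 0.051, adjusted p = 8.55e-10). Egln1 (chr8:124908587-124949324, - strand), the main hydroxylase that marks HIF alpha in oxygen, had 304, 315 and 306 CPM in DNTCF4, against 208, 198 and 204 CPM in Vector libraries (log2 fold change 0.60, SE 0.032, adjusted p = 4.67e-10). Egln3 (chr12:54178981-54203860, - strand), a hydroxylase of the same family that HIF itself induces, had 88.2, 92.7 and 87.6 CPM in DNTCF4, against 66.0, 69.1 and 65.1 CPM in Vector libraries (log2 fold change 0.42, SE 0.038, adjusted p = 1.94e-07). For both hydroxylases the groups did not overlap. Epas1 (chr17:86753700-86833410, + strand), the alpha subunit known as HIF-2 alpha, had 19.7, 18.9 and 20.9 CPM in DNTCF4 and 17.8, 18.8 and 18.6 CPM in Vector libraries and was not called (log2 fold change 0.11, SE 0.070, adjusted p = 0.198).

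The 10 other hypoxia-induced genes were all called higher in DNTCF4, with a median log2 fold change of 0.42, where 29.5% of all tested genes were called higher. Ankrd37 (chr8:45996902-46005707, - strand), an ankyrin repeat gene known as a HIF target, had 3.28, 3.28 and 3.37 CPM in DNTCF4, against 1.13, 1.04 and 1.13 CPM in Vector libraries. Its libraries were tightly grouped and apart, at a low level, and the change was 3.01-fold (log2 fold change 1.59, SE 0.23, adjusted p = 3.34e-05). Ndrg1 (chr15:66929318-66969640, - strand), a stress gene induced by low oxygen and by iron depletion, had 561, 635 and 608 CPM in DNTCF4, against 264, 276 and 269 CPM in Vector libraries (2.23-fold, log2 fold change 1.16, SE 0.042, adjusted p = 4.29e-12). Mxi1 (chr19:53310518-53375810, + strand), a MAX partner that opposes MYC, had 257, 226 and 234 CPM in DNTCF4, against 129, 123 and 128 CPM in Vector libraries (1.89-fold, log2 fold change 0.92, SE 0.044, adjusted p = 1.16e-10). For both genes all DNTCF4 libraries were well above all Vector libraries.

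Car9 (chr4:43506966-43513729, + strand), the membrane carbonic anhydrase used as a marker of hypoxic tumour regions, was barely expressed. It had 1.60, 1.88 and 1.61 CPM in DNTCF4, against 0.905, 0.962 and 1.17 CPM in Vector libraries (log2 fold change 0.75, SE 0.19, adjusted p = 0.00280), so that its rise was apart between groups but began near 1 CPM. Bnip3, a mitophagy receptor, had 323, 275 and 282 CPM in DNTCF4, against 205, 201 and 208 CPM in Vector libraries (log2 fold change 0.52, SE 0.050, adjusted p = 4.08e-07). Its relative Bnip3l changed less (279.9, 238 and 240.4 CPM in DNTCF4, against 224, 225 and 229.6 CPM in Vector libraries, log2 fold change 0.16, SE 0.054, adjusted p = 0.0202), and it was no longer called when DNTCF4 replicate 1 was left out (adjusted p = 0.0634). The remaining rises were those of Kdm3a, a histone demethylase (log2 fold change 0.32), Ddit4, an inhibitor of mTORC1 (0.28), Higd1a, a mitochondrial inner membrane protein (0.27), and Adm, the peptide hormone adrenomedullin (0.14). Summed over the 10 genes, the level was 1780 ± 36.5 CPM in DNTCF4 and 1156 ± 5.86 CPM in Vector libraries (SD, n = 3 each). Ndrg1 was the largest single part of this sum, at 601 ± 37.7 CPM in DNTCF4 and 270 ± 6.09 CPM in Vector libraries.

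**Figure D2:**
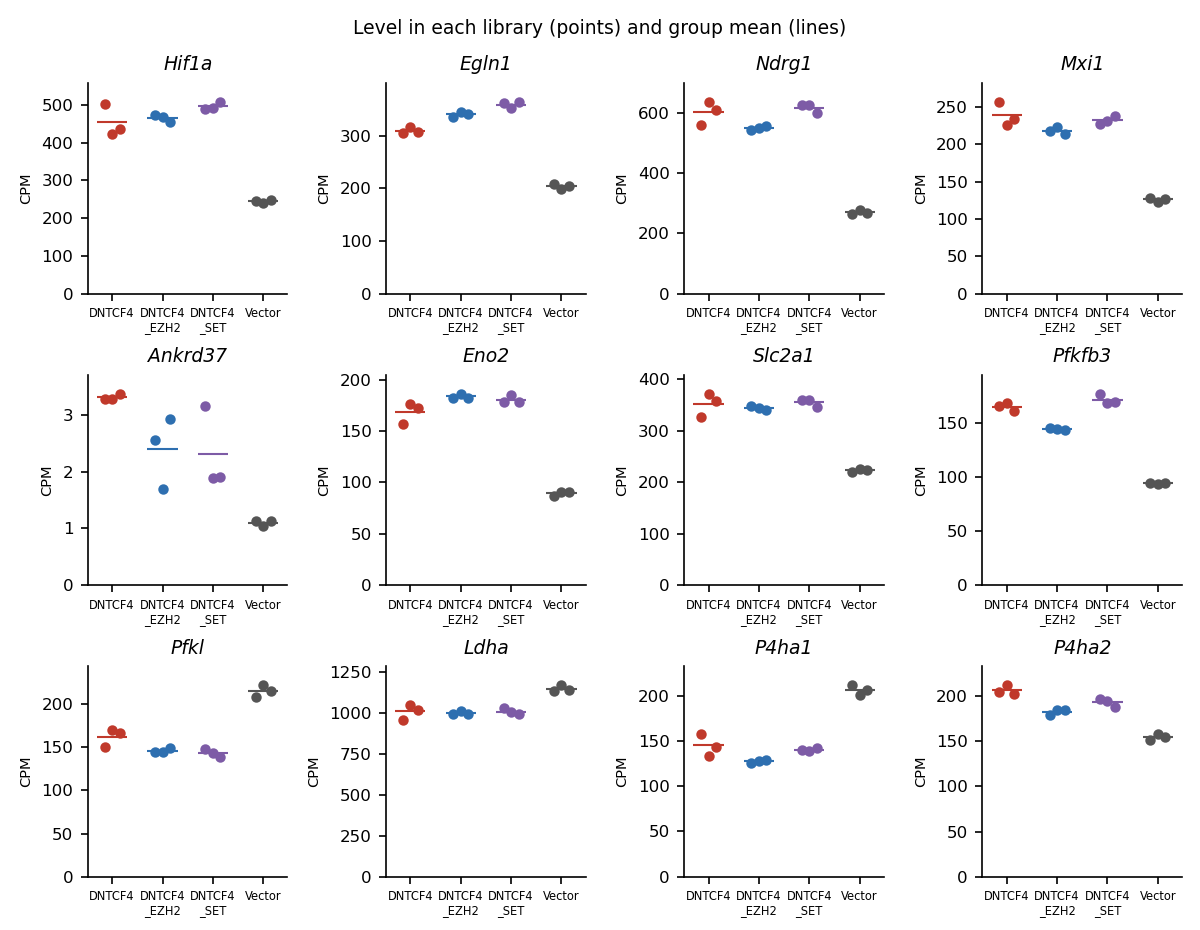
Level in CPM (y axis, from 0) of 12 members in each library (points) with the group mean (lines), for DNTCF4, DNTCF4_EZH2, DNTCF4_SET and Vector from left to right in each panel. Hif1a, Egln1, Ndrg1, Mxi1, Ankrd37, Eno2, Slc2a1, Pfkfb3 and P4ha2 are above Vector in all 9 libraries with DNTCF4, and Pfkl, Ldha and P4ha1 are below it in all 9.

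HIF binds DNA at short motifs, ACGTG or GCGTG. These letters were looked for on both strands, so also as CACGT and CACGC, with overlapping matches counted as 1. The search covered the 250 bases before each start in RefSeq windows (GRCm38.p6). The 50 bases after the start, which the windows also hold, were not searched, and CG pairs were counted over the same 250 bases. The letters ACGTG also lie within CACGTG, the E-box of the MYC and MAX family. Windows were found for 34 of 38 members, 51 windows in all, and none for Bnip3l, Epas1, Ndrg1 and Slc2a3. Of the 51 windows 78.4% held at least 1 match, against 38.6% of the 32851 windows of all genes. The members' windows also held more CG pairs, a median of 14 against 6, and both motifs contain CG. A match is a description of the letters and not a site of binding. Of the 34 members, 31 held a match in at least 1 window. These included members that fell, such as Ldha and Pgam1, with 3 matches in 1 window each. Gpi1 and Tpi1, which also fell, held none. Shown are the 250 bases before the start for 2 genes that rose with several matches (Ankrd37, chr8:45999851-46000100, - strand, and Bnip3, chr7:138909507-138909756, - strand), for Eno2, which rose without any (chr6:124769674-124769923, - strand), and for the collagen hydroxylases P4ha2 (chr11:54100674-54100923, + strand) and P4ha1 (chr10:59323046-59323295, + strand), which moved in opposite directions with 3 matches each. Capitals mark the matches.
Ankrd37: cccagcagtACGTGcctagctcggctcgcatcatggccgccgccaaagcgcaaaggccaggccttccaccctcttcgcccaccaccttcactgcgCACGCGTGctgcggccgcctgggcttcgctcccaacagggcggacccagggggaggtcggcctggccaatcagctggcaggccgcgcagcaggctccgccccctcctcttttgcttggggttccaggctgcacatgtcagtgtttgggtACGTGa
Bnip3: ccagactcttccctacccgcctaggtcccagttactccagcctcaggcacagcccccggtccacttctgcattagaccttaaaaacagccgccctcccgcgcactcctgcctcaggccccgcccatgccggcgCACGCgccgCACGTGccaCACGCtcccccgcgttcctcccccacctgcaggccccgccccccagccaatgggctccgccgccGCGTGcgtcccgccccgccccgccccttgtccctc
Eno2: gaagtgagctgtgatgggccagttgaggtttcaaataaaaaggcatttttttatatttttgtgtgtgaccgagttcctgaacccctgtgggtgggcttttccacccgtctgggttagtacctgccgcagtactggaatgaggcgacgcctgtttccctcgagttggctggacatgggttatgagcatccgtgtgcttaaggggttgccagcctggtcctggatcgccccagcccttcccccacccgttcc
P4ha2: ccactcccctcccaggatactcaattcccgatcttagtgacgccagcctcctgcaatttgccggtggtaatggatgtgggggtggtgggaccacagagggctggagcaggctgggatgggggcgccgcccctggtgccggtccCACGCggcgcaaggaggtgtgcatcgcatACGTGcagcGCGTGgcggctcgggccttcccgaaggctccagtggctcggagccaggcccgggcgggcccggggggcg
P4ha1: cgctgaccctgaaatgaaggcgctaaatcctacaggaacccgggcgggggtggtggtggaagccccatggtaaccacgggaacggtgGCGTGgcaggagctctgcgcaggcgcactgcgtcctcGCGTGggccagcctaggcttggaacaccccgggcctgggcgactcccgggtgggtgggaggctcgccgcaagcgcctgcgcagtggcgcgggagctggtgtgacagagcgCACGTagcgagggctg

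Of the carriers, Slc2a1 rose. Slc2a1 (chr4:119108711-119137983, + strand), the ubiquitous glucose transporter of growing cells, had 327, 372 and 358 CPM in DNTCF4, against 221, 226 and 223 CPM in Vector libraries, with no overlap (1.58-fold, log2 fold change 0.66, SE 0.042, adjusted p = 2.97e-09). The lactate exporter Slc16a3 had 282, 309 and 299.6 CPM in DNTCF4 and 281, 293 and 281 CPM in Vector libraries and was not called (log2 fold change 0.06, SE 0.042, adjusted p = 0.243). Slc2a3, the high-affinity glucose transporter of neurons, was close to the floor, with 7, 2 and 6 counts in DNTCF4 and 14, 41 and 5 counts in Vector libraries. Its groups overlapped, and its call (log2 fold change -2.07, SE 0.69, adjusted p = 0.0182) was lost without Vector replicate 2 (adjusted p = 0.216) or without DNTCF4 replicate 2 (adjusted p = 0.071).

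Among the 16 enzymes of the pathway, 3 rose, 8 fell and 5 were not called, where 29.5% of all tested genes rose and 28.0% fell. The median log2 fold change of the 16 was -0.11. The 3 that rose are isozymes of steps that other genes also serve. So are Pfkl, Aldoa and Aldoc, which fell, and Hk1, Pfkm and Eno1, which were not called. Eno2 (chr6:124760053-124769673, - strand), the enolase best known from neurons, had 156, 177 and 172 CPM in DNTCF4, against 86.5, 90.9 and 90.7 CPM in Vector libraries (1.89-fold, log2 fold change 0.92, SE 0.044, adjusted p = 1.33e-10). Hk2 (chr6:82725025-82774454, - strand), the inducible hexokinase that many tumours express, had 139.7, 141 and 143 CPM in DNTCF4, against 105, 109 and 107 CPM in Vector libraries (log2 fold change 0.40, SE 0.035, adjusted p = 1.28e-07). Pfkp (chr13:6579768-6648777, - strand), the platelet form of phosphofructokinase, was close between the groups, with 348, 366 and 364 CPM in DNTCF4 and 327, 336 and 328 CPM in Vector libraries (log2 fold change 0.12, SE 0.034, adjusted p = 0.00640). None of these 3 overlapped between the groups, although Pfkp was separated by little and lost its call when only the 6 libraries were fitted (adjusted p = 0.053).

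The falls were small. Pfkl (chr10:77986947-78010083, - strand), the liver form of phosphofructokinase, fell most among the enzymes, to 149, 169 and 166 CPM in DNTCF4, against 208, 221 and 215 CPM in Vector libraries (1.33-fold lower, log2 fold change -0.41, SE 0.046, adjusted p = 1.72e-06). Ldha (chr7:46841475-46855627, + strand), the lactate dehydrogenase subunit that HIF is known to induce, had 955, 1049 and 1019 CPM in DNTCF4, against 1129, 1167 and 1139 CPM in Vector libraries (log2 fold change -0.18, SE 0.035, adjusted p = 0.000389). Both sets of libraries were apart. The other falls ran from -0.14 for Tpi1, triose phosphate isomerase, to -0.23 for Gpi1, glucose phosphate isomerase, with Aldoa and Aldoc (aldolases), Gapdh and Pgam1 (phosphoglycerate mutase) between them on the log2 scale. Of these, Aldoc, Gapdh and Pgam1 lost their call under at least 1 of 13 alternative settings. Pkm (chr9:59656368-59679375, + strand), pyruvate kinase, had 1699.9, 2013 and 1872 CPM in DNTCF4 and 1895, 2034 and 1959.7 CPM in Vector libraries and was not called (log2 fold change -0.08, SE 0.049, adjusted p = 0.202), nor were Hk1, Pfkm, Pgk1 and Eno1. Pfkm did not overlap between groups and was called lower with the DESeq2 Wald test (adjusted p = 0.0381). Pgk1 was called lower without DNTCF4 replicate 1 (adjusted p = 0.00499), and Pkm without DNTCF4 replicate 2 (adjusted p = 0.0118). The near copy Pgk1-rs7 held between 0.171 and 7.39% of the reads of Pgk1 and itself, depending on the library, and these reads were not added to Pgk1. The counts are per gene, so the splice forms of Pkm were not told apart.

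DNTCF4 replicate 1 had the lowest level of its group for several enzymes, among them Gapdh (833, 1089.7 and 1011 CPM in DNTCF4, against 1087, 1170.2 and 1134 CPM in Vector libraries), and the highest for Hif1a, Bnip3 and Mxi1. Summed over the 16 enzymes, the level was 9620 ± 573 CPM in DNTCF4 and 10376 ± 246 CPM in Vector libraries, about 1% of all counts. The lowest DNTCF4 library held 9011 CPM and the highest 10147 CPM, so that the highest DNTCF4 library reached the lowest Vector library at 10146 CPM.

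The regulators of flux went separate ways. Pfkfb3 (chr2:11471433-11554077, - strand), which makes the activator of phosphofructokinase, had 166, 169 and 162 CPM in DNTCF4, against 94.8, 94.1 and 95.1 CPM in Vector libraries (1.75-fold, log2 fold change 0.81, SE 0.034, adjusted p = 2.48e-11), and both groups were tight and apart. Its relative Pfkfb4 (chr9:108991778-109032228, + strand) fell to 4.84, 4.43 and 5.68 CPM in DNTCF4, against 7.46, 7.54 and 6.04 CPM in Vector libraries (log2 fold change -0.50, SE 0.11, adjusted p = 0.00129), at a level far below that of Pfkfb3. Pdk1 (chr2:71873224-71903858, + strand), the kinase that closes pyruvate dehydrogenase and a known HIF target, had 68.4, 60.3 and 60.2 CPM in DNTCF4 and 70.7, 69.0 and 68.2 CPM in Vector libraries. These overlapped, and the small fall (log2 fold change -0.14, SE 0.056, adjusted p = 0.0432) was lost when any 1 of 5 of the 6 libraries was left out.

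The collagen prolyl hydroxylases, which modify collagen and are both known HIF targets, moved apart. P4ha2 (chr11:54100095-54131665, + strand) had 205, 212 and 202 CPM in DNTCF4, against 152, 158 and 154 CPM in Vector libraries (log2 fold change 0.42, SE 0.034, adjusted p = 6.39e-08). P4ha1 (chr10:59323296-59373304, + strand) had 158, 134 and 144 CPM in DNTCF4, against 212, 201 and 206 CPM in Vector libraries (log2 fold change -0.51, SE 0.048, adjusted p = 3.28e-07). Neither overlapped between groups, and their sum was 352 ± 9.75 CPM in DNTCF4 and 361 ± 2.41 CPM in Vector libraries.

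The balance between related genes was read as a ratio of CPM per kilobase of exon within each library. P4ha2 over P4ha1 was 0.943 ± 0.0962 in DNTCF4, 0.945 ± 0.00883 in DNTCF4_EZH2, 0.907 ± 0.0267 in DNTCF4_SET and 0.495 ± 0.0222 in Vector libraries (mean ± SD, n = 3). Eno2 over Eno1 was 0.305 ± 0.00147 in DNTCF4, 0.334 ± 0.0155 in DNTCF4_EZH2, 0.326 ± 0.00449 in DNTCF4_SET and 0.156 ± 0.00267 in Vector libraries. For both pairs every library with DNTCF4 was above every Vector library. RSEM divides reads between Eno1 and its near copy Eno1b, which held 31.7 to 34.9% of the reads of both. With these reads added to Eno1 the ratio was 0.205 in DNTCF4, 0.226 in DNTCF4_EZH2, 0.220 in DNTCF4_SET and 0.103 in Vector libraries. Hk2 over Hk1 was 0.984 ± 0.0858 in DNTCF4, 0.809 ± 0.0226 in DNTCF4_EZH2, 0.879 ± 0.0234 in DNTCF4_SET and 0.731 ± 0.00351 in Vector libraries. Epas1 over Hif1a was 0.0464 ± 0.00461 in DNTCF4, 0.0670 ± 0.00539 in DNTCF4_EZH2, 0.0604 ± 0.00249 in DNTCF4_SET and 0.0793 ± 0.00336 in Vector libraries, where it was above every library with DNTCF4. With the longest transcript as length, Hk2 over Hk1 and P4ha2 over P4ha1 became 0.534 and 1.89 in DNTCF4, so these ratios compare groups and do not rank the genes.

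**Figure D3:**
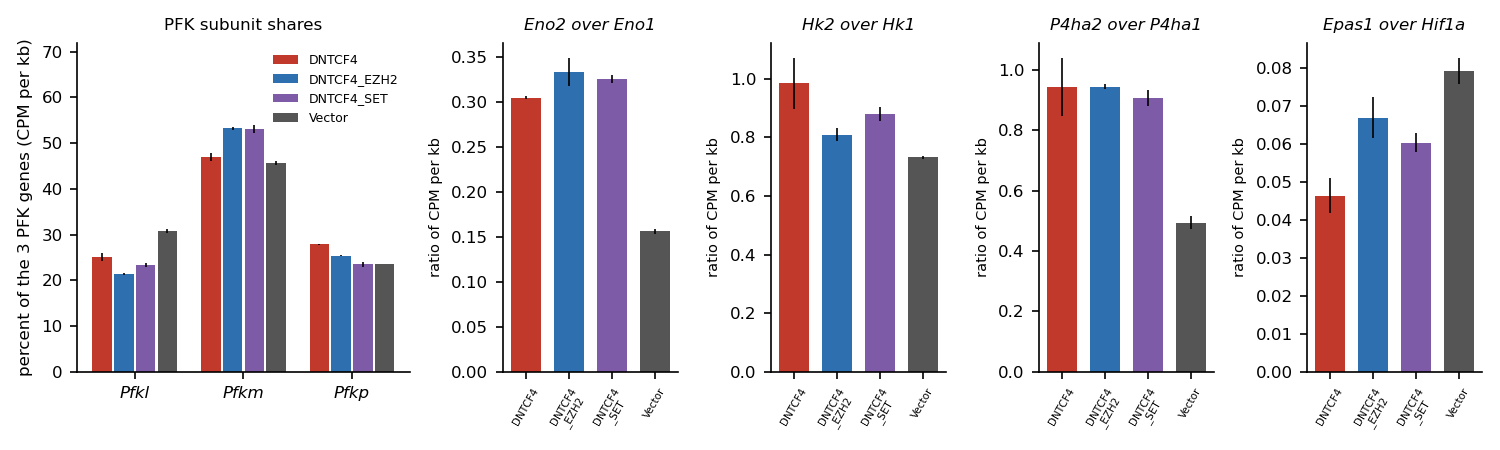
Left, share in percent of the summed CPM per kilobase of the 3 phosphofructokinase genes held by each gene. Right, ratios of CPM per kilobase of 4 pairs of related genes. Bars are means and error bars SD over 3 libraries, for DNTCF4, DNTCF4_EZH2, DNTCF4_SET and Vector from left to right. Pfkl holds 25.2% in DNTCF4 and 30.8% in Vector libraries, and Eno2 over Eno1 is 0.305 in DNTCF4 and 0.156 in Vector libraries. Shares and ratios depend on the gene length used, so they compare groups and do not rank the genes.

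The phosphofructokinase subunits, which form mixed tetramers, shifted in share. Pfkl held 25.2 ± 0.889% of the summed level per kilobase in DNTCF4, 21.4 ± 0.221% in DNTCF4_EZH2, 23.4 ± 0.448% in DNTCF4_SET and 30.8 ± 0.520% in Vector libraries. Pfkm, the muscle form, held 47.0 ± 0.816%, 53.2 ± 0.359% and 53.1 ± 0.922% in DNTCF4, DNTCF4_EZH2 and DNTCF4_SET, and 45.6 ± 0.478% in Vector libraries. Pfkp held 27.9 ± 0.116% in DNTCF4, 25.4 ± 0.176% in DNTCF4_EZH2, 23.5 ± 0.540% in DNTCF4_SET and 23.6 ± 0.0983% in Vector libraries. The share of Pfkl was thus lower in all 3 groups with DNTCF4 than in Vector, that of Pfkp was highest in DNTCF4, and that of Pfkm was higher in both groups with a second construct than in DNTCF4. With the longest transcript as length these differences kept their direction. In Vector libraries Pfkl then held 38.1%, Pfkm 36.7% and Pfkp 25.2%, so the shares compare groups and do not rank the genes.

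With EZH2 added to DNTCF4, every called member differed from DNTCF4 by under 1.5-fold. In DNTCF4_EZH2 against DNTCF4, 7 members rose, 9 fell and 22 were not called, where 25.5% of all genes were called (13.0% higher and 12.5% lower), and no member was called with a change of 1.5-fold, where 2.24% of all genes were so higher and 2.0% lower. Libraries were apart for 8 members higher and 11 lower, where 19.9% and 19.2% of all genes were. Epas1 rose most, to 30.2, 32.0 and 26.6 CPM in DNTCF4_EZH2, against 19.7, 18.9 and 20.9 CPM in DNTCF4 libraries (1.49-fold, log2 fold change 0.58, SE 0.067, adjusted p = 1.46e-05). Egln3 had 110.3, 110.0 and 113 CPM in DNTCF4_EZH2, against 88.2, 92.7 and 87.6 CPM in DNTCF4 libraries (log2 fold change 0.31, SE 0.037, adjusted p = 2.08e-05), and Egln1 had 335, 344 and 341 CPM in DNTCF4_EZH2, against 304, 315 and 306 CPM in DNTCF4 libraries (log2 fold change 0.14, SE 0.032, adjusted p = 0.00458). These 3 genes of the HIF switch did not overlap between groups and lay above Vector in every DNTCF4_EZH2 library, whereas Hif1a, at 474, 468 and 456 CPM in DNTCF4_EZH2, against 502, 424 and 436 CPM in DNTCF4 libraries, was not called (log2 fold change 0.04, SE 0.050, adjusted p = 0.645). Without DNTCF4 replicate 1, Hif1a was called higher in DNTCF4_EZH2 (log2 fold change 0.11, adjusted p = 0.00556).

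Of the enzymes, Pfkm rose to 181, 177 and 187 CPM in DNTCF4_EZH2, against 148, 153 and 151 CPM in DNTCF4 libraries (log2 fold change 0.27, SE 0.034, adjusted p = 3.74e-05). Aldoc, the brain form of aldolase, rose to 21.4, 20.9 and 22.3 CPM in DNTCF4_EZH2, against 14.9, 19.0 and 18.4 CPM in DNTCF4 libraries (log2 fold change 0.30, SE 0.075, adjusted p = 0.00797). Pgam1 and Eno2 also rose (log2 fold changes 0.20 and 0.13), but their calls depended on the setting. Pgam1 was not called with only the 6 libraries (adjusted p = 0.0687), and Eno2 lost its call under 7 of 13 alternatives, among them 5 of the 6 that leave out 1 library (adjusted p = 0.0604 to 0.146). Hk2 fell to 123, 121 and 128 CPM in DNTCF4_EZH2, against 139.7, 141 and 143 CPM in DNTCF4 libraries (log2 fold change -0.19, SE 0.035, adjusted p = 0.00102), as did Pfkl (-0.15). Pfkfb3 had 146, 144 and 144 CPM in DNTCF4_EZH2, against 166, 169 and 162 CPM in DNTCF4 libraries (log2 fold change -0.19, SE 0.033, adjusted p = 0.000552), and stayed above its Vector level. The further falls were those of Slc16a3 (-0.20), P4ha1 (-0.19), P4ha2 (-0.18), Ndrg1 (-0.13), Mxi1 (-0.13) and Ddit4 (-0.10). Of the falls, P4ha1 lost its call with only the 6 libraries (adjusted p = 0.0593). Pfkl, Ndrg1, Mxi1 and Ddit4 lost theirs with only the 6 libraries too, and in most fits that left out 1 library. Ddit4 was also lost with the replicate number as a block (adjusted p = 0.0611). The falls numbered 5 without DNTCF4 replicate 3, without DNTCF4_EZH2 replicate 1 or without DNTCF4_EZH2 replicate 2.

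**Figure D4:**
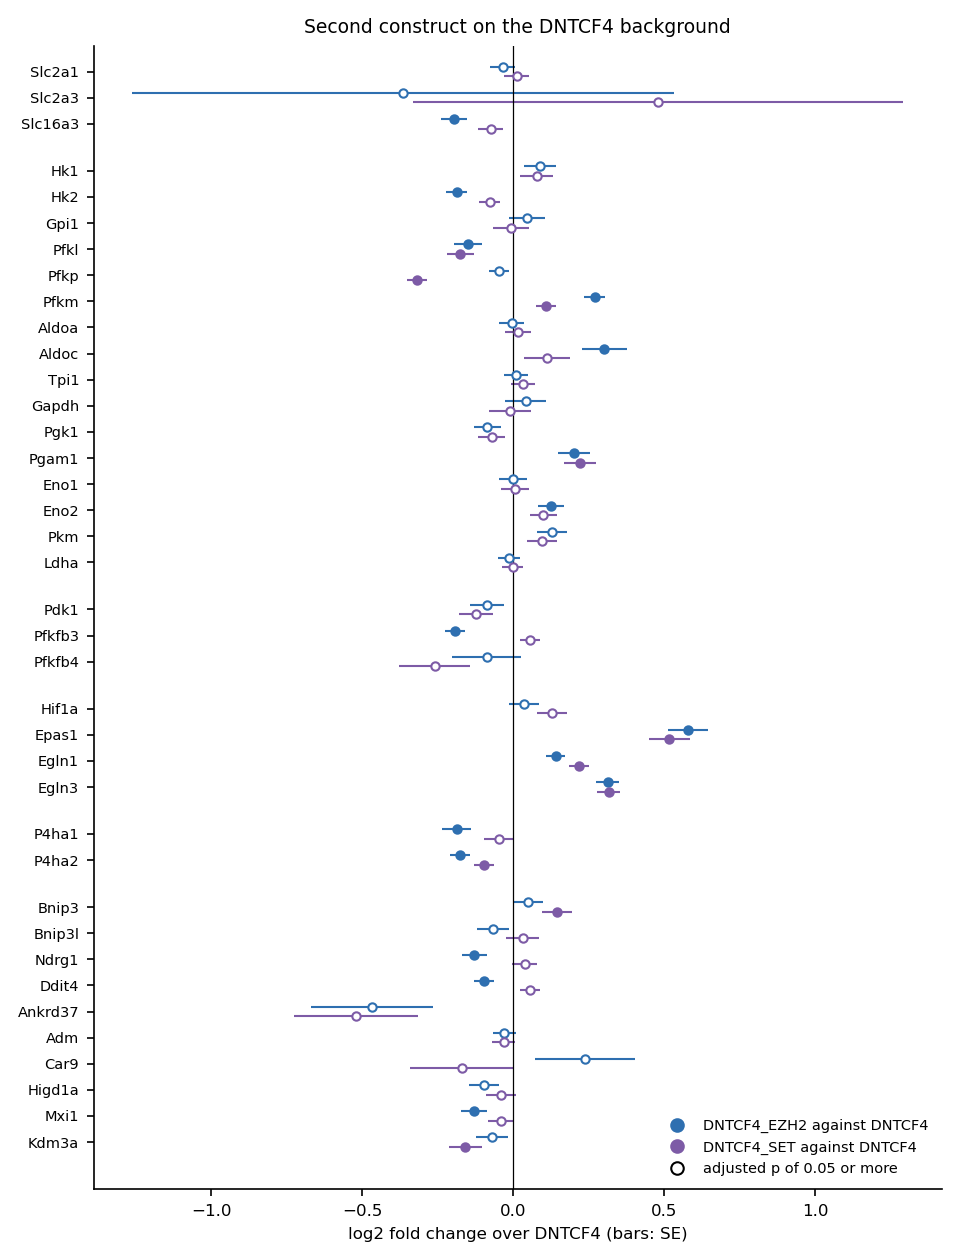
Log2 fold change of each member over DNTCF4 (x axis, bars are SE, n = 3 libraries per group) in DNTCF4_EZH2 (upper point of each pair) and DNTCF4_SET (lower point). Filled points are called. Both comparisons share the DNTCF4 libraries. Epas1 lies at 0.58 and 0.52, Egln3 at 0.31 and 0.32, and no called member passes 1.5-fold.

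In DNTCF4_SET against DNTCF4, 6 members rose, 4 fell and 28 were not called, where 26.0% of all genes were called (12.7% higher and 13.3% lower), and again no member was called with a change of 1.5-fold, where 2.59% of all genes were so higher and 2.23% lower. Libraries were apart for 8 members higher and 6 lower, where 18.2% and 18.9% of all genes were. Epas1 had 28.3, 29.2 and 27.7 CPM in DNTCF4_SET, against 19.7, 18.9 and 20.9 CPM in DNTCF4 libraries (log2 fold change 0.52, SE 0.067, adjusted p = 5.21e-05). Egln3 had 112, 113 and 110.0 CPM in DNTCF4_SET libraries (log2 fold change 0.32, SE 0.037, adjusted p = 2.19e-05) and Egln1 had 361, 351 and 363 CPM (log2 fold change 0.22, SE 0.032, adjusted p = 0.000163), both apart from the DNTCF4 libraries given above. Hif1a had 490, 492 and 507 CPM in DNTCF4_SET libraries and was not called (log2 fold change 0.13, SE 0.050, adjusted p = 0.0717). It was called higher without DNTCF4 replicate 1 (adjusted p = 2.11e-05) and with the DESeq2 Wald test (adjusted p = 0.0250). Pgam1 rose to 1047, 1049 and 1032 CPM in DNTCF4_SET, against 790.3, 969 and 922 CPM in DNTCF4 libraries (log2 fold change 0.22, SE 0.053, adjusted p = 0.00650). Pfkm (0.11) and Bnip3 (0.14) rose by less, and Bnip3 overlapped between groups. Bnip3 lost its call under 6 of 13 alternatives, among them 5 of the 6 that leave out 1 library (adjusted p = 0.0529 to 0.152), and Pfkm under 5, among them 3 of those 6.

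Pfkp fell to 294, 292 and 279 CPM in DNTCF4_SET, against 348, 366 and 364 CPM in DNTCF4 libraries (log2 fold change -0.32, SE 0.034, adjusted p = 7.19e-06), and all 3 libraries lay below those of Vector as well. Pfkl (-0.17), Kdm3a (-0.16) and P4ha2 (-0.10) fell by less. P4ha2 was not called with the replicate number as a block (adjusted p = 0.0596) or with the DESeq2 Wald test (0.0994). It was also lost on rlog values (0.0737) and with only the 6 libraries (0.187). Kdm3a lost its call with the DESeq2 Wald test (adjusted p = 0.0606), on rlog values (0.0983) and with only the 6 libraries (0.132). P4ha2 and Kdm3a were also lost in most fits that left out 1 library, and Pfkl lost its call under at least 1 alternative. The falls numbered 1 without DNTCF4 replicate 3 or DNTCF4_SET replicate 3 and 2 without DNTCF4_SET replicate 2, while Pfkp, Pgam1, Epas1, Egln1 and Egln3 were called under all 13 alternative settings.

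The second constructs were also set against each other, in groups that both had raised Ezh2. In DNTCF4_EZH2 against DNTCF4_SET, 2 members rose and 3 fell, where 5.16% of all genes were called (3.0% higher and 2.17% lower), and no member was called with a change of 1.5-fold (0.279% of all genes so higher and 0.292% lower). Libraries were apart for 6 members higher and 12 lower, where 16.5% and 15.3% of all genes were. Pfkp was higher in DNTCF4_EZH2, at 347, 343 and 354 CPM, against 294, 292 and 279 CPM in DNTCF4_SET libraries (log2 fold change 0.27, SE 0.034, adjusted p = 0.000227). Pfkfb3 was lower, at 146, 144 and 144 CPM in DNTCF4_EZH2, against 177, 169 and 169 CPM in DNTCF4_SET libraries (log2 fold change -0.25, SE 0.033, adjusted p = 0.000458). Both were apart and were called under all 13 alternatives. Pfkm (log2 fold change 0.16, SE 0.034, adjusted p = 0.0118) was lost under at least 1 of them. Ndrg1 (log2 fold change -0.17, SE 0.041, adjusted p = 0.0286) was lost in every fit that left out 1 library. Ddit4 (log2 fold change -0.15, SE 0.034, adjusted p = 0.0161) was lost in most of these fits. The falls numbered 1 without any 1 of DNTCF4_EZH2 replicates 1 and 2 or the 3 DNTCF4_SET libraries. Epas1 (log2 fold change 0.06, SE 0.065) and Egln3 (adjusted p = 0.976) were not called between the second constructs.

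Against Vector, each group with a second construct had 19 members higher, 12 lower and 7 not called, as DNTCF4 alone did, but the members differed in part. Epas1 was called higher in both groups (log2 fold changes 0.69 in DNTCF4_EZH2 and 0.63 in DNTCF4_SET) and Pgk1 lower (-0.13 and -0.12), while Aldoc was called in neither. Pfkp, higher in DNTCF4, was not called in DNTCF4_EZH2 and was called lower in DNTCF4_SET (-0.20). In DNTCF4_EZH2, Pfkm was called higher and Slc16a3 lower, and Bnip3l was not called. Over all genes 57.7% were called in DNTCF4_EZH2 against Vector (28.7% higher and 29.0% lower) and 58.0% in DNTCF4_SET against Vector (28.1% higher and 29.9% lower), and the 3 comparisons share the Vector libraries. Rises of 1.5-fold or more numbered 11 in each, where 10.9% of all genes rose so far in DNTCF4_EZH2 and 10.4% in DNTCF4_SET, and falls numbered 3 in each, where 9.23% and 10.1% did. Libraries were apart for 23 members higher and 12 lower in DNTCF4_EZH2, where 33.8% and 34.3% of all genes were, and for 20 higher and 12 lower in DNTCF4_SET, where 32.1% and 34.0% were. Hif1a was at log2 fold change 0.93 in DNTCF4_EZH2 and 1.02 in DNTCF4_SET over Vector, Ndrg1 at 1.03 and 1.19, Mxi1 at 0.79 and 0.88, and Eno2 at 1.04 and 1.02. Ldha was at -0.20 and -0.19, and Pfkl at -0.56 and -0.59, and all 6 were called in both. Pgam1, which fell in DNTCF4, had 1021, 1034 and 1024 CPM in DNTCF4_EZH2 and 1047, 1049 and 1032 CPM in DNTCF4_SET, against 1010.0, 1013 and 988 CPM in Vector libraries, and was not called in either (adjusted p = 0.625 and 0.400). Falls against Vector numbered 7 in DNTCF4_EZH2 without its replicate 1 or without Vector replicate 2.

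Other genes of these pathways were counted from lists that hold no member. Like the members, these lists were chosen with earlier results of these data known, so their counts are not independent of those results. Of 40 tested genes among 42 others reported as hypoxia responsive, 29 were higher and 5 lower in DNTCF4 against Vector, where 29.5% and 28.0% of all genes were, with a median log2 fold change of 0.35. Of the rises 13 reached 1.5-fold and of the falls 3, where 10.8% and 9.87% of all genes did. Nos2, the inducible nitric oxide synthase, had 66.8 ± 6.32 CPM in DNTCF4 and 1.56 ± 0.177 CPM in Vector libraries (log2 fold change 5.42, SE 0.10, adjusted p = 1.95e-15). Stc2 and Stc1, secreted stanniocalcins, were at log2 fold changes 4.30 and 1.04, and Rragd, a GTPase of nutrient sensing, at 2.14. The 5 falls, named after their values were seen, were those of Ppp1r3c, a glycogen-targeting phosphatase subunit, at 2.15 ± 0.514 CPM in DNTCF4 and 7.61 ± 0.569 CPM in Vector libraries (log2 fold change -1.82), Lox, the lysyl oxidase that cross-links collagen (-0.79), Pam, a peptide-amidating enzyme (-0.65), Loxl2, a relative of Lox (-0.15), and Hmox1, haem oxygenase 1 (-0.15). With the second constructs, 8 of the 40 rose and 9 fell in DNTCF4_EZH2 against DNTCF4, where 13.0% and 12.5% of all genes did, and 8 rose and 7 fell in DNTCF4_SET against DNTCF4, where 12.7% and 13.3% did. Hilpda, a lipid droplet protein, was lower in both, at 41.8 ± 0.679 CPM in DNTCF4_EZH2 and 48.7 ± 0.997 CPM in DNTCF4_SET, against 72.7 ± 1.28 CPM in DNTCF4 libraries (log2 fold changes -0.80 and -0.58), with 25.7 ± 2.67 CPM in Vector libraries.

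**Figure D5:**
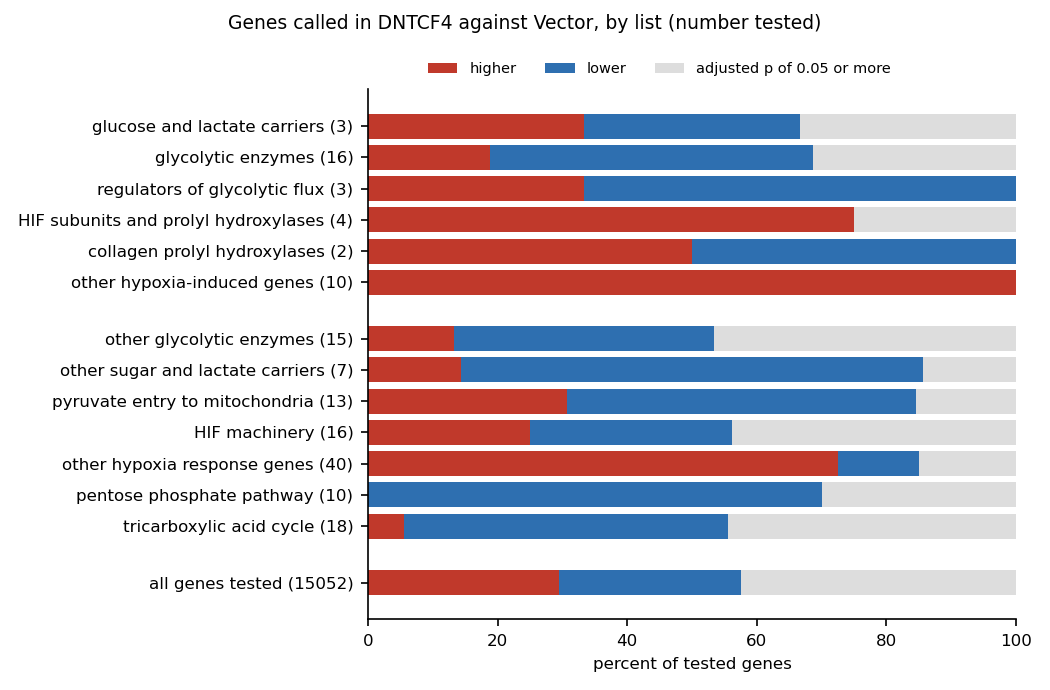
Percent of tested genes called higher, lower or not called in DNTCF4 against Vector, for the 6 roles of the members (top), 7 lists of other genes of these pathways (middle) and all 15052 genes tested (bottom), with the number tested in brackets. Rises make up all 10 of the other hypoxia-induced members and 29 of 40 of the other hypoxia response genes, against 29.5% of all genes, and no gene of the pentose phosphate list rose.

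Of 16 tested genes of the HIF machinery, 4 rose and 5 fell in DNTCF4 against Vector, shares near the 29.5% and 28.0% of all genes, so the list as a whole did not stand out. The genes named here are those of smallest p. Hif1an, the asparaginyl hydroxylase that blocks HIF activation, rose (log2 fold change 0.50), as did the ARNT relative Arnt2 (0.91) and Cited2, which competes with HIF for its coactivators (0.47). Egln2, the hydroxylase of the EGLN family that low oxygen does not induce, fell (-0.40). Arnt itself, the partner of both alpha subunits, had 108 ± 3.95 CPM in DNTCF4, 117 ± 0.904 CPM in DNTCF4_EZH2, 121 ± 3.40 CPM in DNTCF4_SET and 109 ± 2.45 CPM in Vector libraries.

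Of 15 tested glycolytic enzymes outside the members, 2 rose and 6 fell in DNTCF4 against Vector (29.5% and 28.0% of all genes), with a median log2 fold change of -0.05. Eno3, the muscle enolase, fell to 23.2 ± 0.990 CPM in DNTCF4, against 57.5 ± 1.16 CPM in Vector libraries (log2 fold change -1.31, SE 0.059, adjusted p = 4.91e-11), so that the enolases Eno2 and Eno3 moved in opposite directions. Minpp1 and Bpgm, which act on bisphosphoglycerate, fell (-0.62 and -0.60). Fbp2, the muscle form of fructose bisphosphatase, had 0.583 ± 0.104 CPM in DNTCF4 and 0.0126 ± 0.0218 CPM in Vector libraries, under the floor, so no fold is given. Ldhb, the lactate dehydrogenase subunit of heart, was higher with either second construct, at 42.8 ± 1.74 CPM in DNTCF4_EZH2 and 41.1 ± 2.51 CPM in DNTCF4_SET, against 28.8 ± 2.17 CPM in DNTCF4 libraries (log2 fold changes 0.57 and 0.51).

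Of 7 further carriers and their partners, 1 rose and 5 fell in DNTCF4 against Vector (29.5% and 28.0% of all genes). Emb, a chaperone of lactate carriers, fell most (-1.09), followed by Txnip, which lowers glucose uptake (-0.71). At the entry of pyruvate to mitochondria 4 of 13 genes rose and 7 fell, against the same shares. Pdk4, an inhibitor of pyruvate dehydrogenase like Pdk1, rose to 52.8 ± 4.03 CPM in DNTCF4, against 23.7 ± 0.646 CPM in Vector libraries (log2 fold change 1.15, SE 0.059, adjusted p = 2.26e-10). The mitochondrial pyruvate carrier genes Mpc1 and Mpc2 fell (-0.53 and -0.93), and so did pyruvate carboxylase, Pcx (-0.90). Pcx was higher with either second construct, at 41.2 ± 0.662 CPM in DNTCF4_EZH2 and 37.7 ± 0.584 CPM in DNTCF4_SET, against 24.1 ± 1.38 CPM in DNTCF4 libraries (log2 fold changes 0.77 and 0.65), with 44.9 ± 1.69 CPM in Vector libraries.

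In the pentose phosphate pathway, which draws on glucose 6-phosphate for NADPH and ribose, 7 of 10 genes fell in DNTCF4 against Vector and none rose, where 28.0% and 29.5% of all genes did, among them G6pdx (-0.35), Taldo1 (-0.39) and Tkt (-0.35), with a list median of -0.26. In the tricarboxylic acid cycle 1 of 18 rose and 9 fell, against the same shares, with Suclg2 (-0.85) and Suclg1 (-0.42), subunits of succinyl-CoA ligase, among the falls and a list median of -0.09. In DNTCF4_EZH2 against DNTCF4, 5 pentose phosphate genes rose and 1 fell, and 7 genes of the cycle rose and none fell, where 13.0% and 12.5% of all genes did. In DNTCF4_SET against DNTCF4 these were 1 and 2 for the pentose phosphate list and 2 and 1 for the cycle, where 12.7% and 13.3% of all genes rose and fell.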

How the data were processed

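Total RNA from 12 libraries was sequenced, and groups and replicate numbers came from the sample titles. The submitters' processing notes name cutadapt 2.3, FastQC 0.11.8, STAR 2.7.8a, RSEM 1.3.3, DESeq2 and the build GRCm38. The deposited values are RSEM expected counts per gene, not normalized, already whole numbers in the file. RSEM shares reads that map to several genes, so near copies such as Eno1b can hold part of a member's reads, and for the use of strand the sources used here give nothing. The authors also deposited rlog values, regularised log2 counts, for 21754 genes.

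The counts were tested with edgeR 4.0.16 in R 4.3.3: filterByExpr (minimum count 10, minimum total 15), TMM scaling, all 12 libraries in 1 model of group means (8 residual degrees of freedom, biological coefficient of variation 5.17%), two-sided quasi-likelihood tests, and Benjamini-Hochberg adjustment over 15052 genes. The floor of 3 counts covers counting error only. In each pair of replicates the counts differed beyond sampling noise, so each library counted as 1. Alternatives were DESeq2 1.42.0 (Wald test, and its size factors in edgeR), limma 3.58.1 on the deposited log2 (rlog) values, other filters and folds, the replicate block, the 6 libraries compared, and each library left out. Adding Eno1b to Eno1 was chosen after seeing the data. Gene positions are from GENCODE, promoters from RefSeq.

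The members and lists were chosen with earlier results of these data known. Genes named are 13 members on a fixed list, the 4 largest called changes per comparison with no overlap between groups and a higher mean of at least 1 CPM, and up to 4 genes of smallest p in each other pathway list. Further members are named for their role and were chosen after their values were seen.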

Additional observations from a re-analysis of the deposited data

How the results depend on the processing

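For DNTCF4 against Vector, 24 of the 31 called members stayed called in the same direction under each of the 13 alternatives (17 higher, 7 lower); those lost under at least 1 were Aldoc, Bnip3l, Gapdh, Pdk1, Pfkp, Pgam1 and Slc2a3. In DNTCF4_EZH2 against DNTCF4 this held for 9 of 16 (lost: Ddit4, Eno2, Mxi1, Ndrg1, P4ha1, Pfkl and Pgam1), in DNTCF4_SET against DNTCF4 for 5 of 10 (lost: Bnip3, Kdm3a, P4ha2, Pfkl and Pfkm), and in DNTCF4_EZH2 against DNTCF4_SET for 2 of 5. Members not called in the main fit but called under at least 1 alternative numbered 4 in DNTCF4 against Vector (Pfkm, Pgk1, Pkm and Slc16a3). They numbered 5 in DNTCF4_EZH2 against DNTCF4 (Ankrd37, Bnip3, Hif1a, Pkm and Slc2a1). There were 8 such members in DNTCF4_SET against DNTCF4 and 9 in DNTCF4_EZH2 against DNTCF4_SET. No member changed sign while called. The cause of the moves below was not tested, apart from fewer libraries or another fold in the setting itself.

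The count of members lower in DNTCF4 against Vector was 12, and 7 with only the 6 libraries compared. The 9 rises of 1.5-fold or more became 3 on the deposited rlog values, whose differences are shrunken by construction, 14 with a smaller fold and 2 at 2-fold. The 1 fall of that size became 0 on the rlog values, 0 with a mean of at least 1 CPM, 0 with the 6 libraries and 4 with the smaller fold. Falls in DNTCF4_EZH2 against DNTCF4 numbered 9, and 4 with the 6 libraries, and with the smaller fold 1 member rose in place of 0. Falls in DNTCF4_SET against DNTCF4 numbered 4, and 2 with the DESeq2 Wald test, 2 with DESeq2 size factors, 2 on rlog values and 1 with the 6 libraries, and with the smaller fold 1 member rose in place of 0. Falls in DNTCF4_EZH2 against DNTCF4_SET numbered 3, and 5 with the Wald test and 11 with the 6 libraries. In DNTCF4_EZH2 against Vector the 11 rises of 1.5-fold became 3 on rlog values and 3 at 2-fold, and the 3 falls became 0 and 1. In DNTCF4_SET against Vector the 11 rises became 3 on rlog values and 4 at 2-fold, and the 3 falls became 1 with the Wald test, 0 on rlog values, 1 with the 6 libraries and 1 at 2-fold.

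Leaving out 1 library at a time gave 19 to 19 rises and 7 to 12 falls in DNTCF4 against Vector, with 8 to 9 rises and 0 to 2 falls of 1.5-fold. The ranges were 6 to 8 and 5 to 9 in DNTCF4_EZH2 against DNTCF4 (0 to 1 rises and 0 to 0 falls of 1.5-fold), 4 to 8 and 1 to 6 in DNTCF4_SET against DNTCF4 (0 to 0 and 0 to 1), and 1 to 2 and 1 to 2 in DNTCF4_EZH2 against DNTCF4_SET. Against Vector they were 17 to 19 rises and 7 to 11 falls in DNTCF4_EZH2 (11 to 12 and 1 to 3 of 1.5-fold), and 17 to 19 and 8 to 11 in DNTCF4_SET (11 to 12 and 1 to 3).

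The replicate numbers did not pair the libraries: 1 of 18 pairs with the same number had a correlation of deviations over 0.1, and 3 of 12 libraries correlated best with their own number. With the replicate number as a block, DNTCF4 against Vector kept 19 rises and 12 falls, DNTCF4_EZH2 against DNTCF4 had 8 and 8, DNTCF4_SET against DNTCF4 6 and 3, and DNTCF4_EZH2 against DNTCF4_SET 2 and 3. Slc2a3, Ankrd37 and Car9 lay near or below 3 CPM, and the part of sequencing depth in their results was not tested.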
